A study of Mus musculus with 9 samples.

Results

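Bladders make and clear glycosaminoglycans, long sugar chains that lie in the coat over the urothelium and in the matrix below it. Described here are 37 mouse genes for their synthesis and breakdown, chosen by name from the pathway, with earlier results of these data known: 3 hyaluronan synthases, 3 hyaluronidases, the hyaluronan receptor *Cd44*, the precursor enzyme *Ugdh*, 5 linkage enzymes, 5 heparan sulfate polymerases, 7 enzymes that modify heparan sulfate, 3 that trim it, 5 chondroitin polymerases and 4 chondroitin modifiers. The table lists 53342 genes, all 37 among them, and 36 of the 37 belonged to the 19314 genes with enough reads to be tested, all but *Has2*.

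Hyaluronan is spun out at the cell membrane from UDP-sugars, without a core protein and without sulfate, and hyaluronidases cut it. Heparan sulfate and chondroitin sulfate are built on proteins instead: xylosyltransferases and their partners lay down a short linkage, polymerases extend it with alternating sugars, and sulfotransferases and epimerases then decorate the chain, which sets what it binds. A thin or leaky glycosaminoglycan coat has long been discussed in interstitial cystitis, where replacement of such chains into the bladder is a treatment.

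The samples were bladders of wild-type C57BL/6N mice, female and 8 weeks old on day 0 per the study's methods, in 3 groups of 3 libraries each. In H2O2/saline and H2O2/SB431542 mice, 1.5% H2O2 was put into the bladder on day 0, a chemical injury that serves as a cystitis model, and saline or SB431542, an inhibitor of the TGF-β type I receptor given at 1.2 mM in 100 µl, was injected into the peritoneal cavity on days 0 and 4. Controls received no H2O2. GEO labels them untreated and the paper names them sham; its methods give control mice of the inhibitor experiment 100 µl of saline into the bladder. All bladders were taken on day 10. RNA came from a hemisphere of the organ and so from all its cell types at once, in which fewer cells of a type and less RNA per cell cannot be told apart. The labels do not say that the libraries of a group came from separate mice, so each p measures the spread between these libraries.

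Libraries held 37329213 to 41055328 counts. Bladder markers were present throughout, with none of 14 urothelial and none of 8 smooth muscle markers at 0 throughout a group. H2O2/saline 1 stood apart from the other H2O2/saline libraries. Its Spearman rho over the tested genes was 0.982 with control 1, against 0.949 and 0.946 with H2O2/saline 2 and 3. Control 1 likewise had 0.982 with H2O2/saline 1 and 0.98 with H2O2/SB431542 1, against 0.968 and 0.966 with control 2 and 3. H2O2/SB431542 1 had 0.98 and 0.982 with control 1 and H2O2/saline 1, against 0.9685 and 0.973 with its own group. Results are given with and without H2O2/saline 1. It was singled out for its closeness to a control. Leaving it out thus tends to widen differences of H2O2/saline from control, and may widen those from H2O2/SB431542. Leaving it out cannot support either. The libraries with replicate number 1 also shared high haemoglobin and other red cell transcripts, 1829, 1698 and 1724 CPM (counts scaled to library size) in control, H2O2/saline and H2O2/SB431542 against 550 to 800.3 CPM in the other 6. Summed macrophage and monocyte markers were 363 to 460 CPM in control, 615 to 1038 in H2O2/saline and 443 to 782 in H2O2/SB431542. Neutrophil markers were 1.80 to 3.44, 4.65 to 40.6 and 2.66 to 10.6 CPM, with *Ly6g*, *Camp* and *Ltf* at 0 in all controls. Fibroblast markers summed to 2302 to 4255 CPM in control, 5214 to 5457 in H2O2/saline and 4065 to 6233 in H2O2/SB431542, and nerve and glia markers to 1071 to 1885, 174 to 1084 and 383 to 786 CPM. Smooth muscle markers summed to 22691, 50785 and 43755 CPM in control 1 to 3. They summed to 25126 to 33385 CPM in H2O2/saline and 25722 to 27309 in H2O2/SB431542. The part of these cell shifts, and of the shared replicate number, in the results below was not tested.

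On day 10 after H2O2, the bladders had about 4.70-fold more mRNA of the hyaluronan synthase *Has3*, 3.90-fold more of the hyaluronan receptor *Cd44* and 2.67-fold more of the heparan sulfotransferase *Hs3st1* than controls, and 0.509-fold as much of *Ugdh*, the enzyme that supplies glucuronic acid. These were group means over 3 libraries, and 0 members passed an adjusted p of 0.05 in any of the 3 comparisons, by the quasi-likelihood test of edgeR with p adjusted over all tested genes. For each of these 4 genes H2O2/saline 1 lay nearer to the controls than H2O2/saline 2 and 3 did. When equal replicate numbers were entered as a block, since they deviated together in this comparison, 5 of the 36 passed, beside 4.79% of all tested genes, namely *Has3*, *Cd44* and *Hs3st1* as higher and *Ugdh* and *Extl1* as lower. In the mice given SB431542, *Has3* and *Cd44* lay above all controls but below H2O2/saline 2 and 3. *Ugdh* lay there between 119 and 152 CPM, in or just below the control range.

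These counts are read against those over all genes. In H2O2/saline against control 0.0518% of all tested genes passed the adjusted threshold, in H2O2/SB431542 against control 0.0155%, and in H2O2/SB431542 against H2O2/saline 0%. At an unadjusted p under 0.05, 6 of the 36 members were higher and 3 lower in H2O2/saline against control, where 9.88% of all tested genes were higher and 7.96% lower. At the same threshold 4 were higher and 1 lower in H2O2/SB431542 against H2O2/saline, beside 3.86% and 4.98% of all genes, and in H2O2/SB431542 against control 5 were higher and 0 lower, beside 4.36% and 3.24%. DESeq2 passed 5, 0 and 3 members in H2O2/saline against control, H2O2/SB431542 against H2O2/saline and H2O2/SB431542 against control, where it passed 8.31%, 0.146% and 1.01% of the genes with an adjusted p. limma-voom passed 0 members in each, beside 0.0362%, 0% and 0.0155% of all genes. The replicate block passed 0% of all genes, and 0 members, in H2O2/SB431542 against H2O2/saline.

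In H2O2/saline against control 25 of 36 members had a positive log2 fold change, with a median of 0.17 against −0.02 over all tested genes, of which 48.6% were positive. Between H2O2/SB431542 and H2O2/saline 19 were positive, with a median of 0.02 as over all genes, of which 51.7% were positive, and in H2O2/SB431542 against control 25 were, with a median of 0.11 against 0.00182 and 50.2%. For 4 members all H2O2/saline libraries lay above all controls and for 2 below, beside 9.70% and 8.96% of all genes. All H2O2/SB431542 libraries lay above all H2O2/saline libraries for 4 members and below for 0, beside 8.48% and 7.37%, and above all controls for 5 and below for 0, beside 7.98% and 6.49%. The summed level of all 37 members was 1321 ± 146 CPM in control, 1413 ± 82.8 in H2O2/saline and 1495 ± 125 in H2O2/SB431542 (SD, n = 3), and the groups overlapped.

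**Figure D1:**
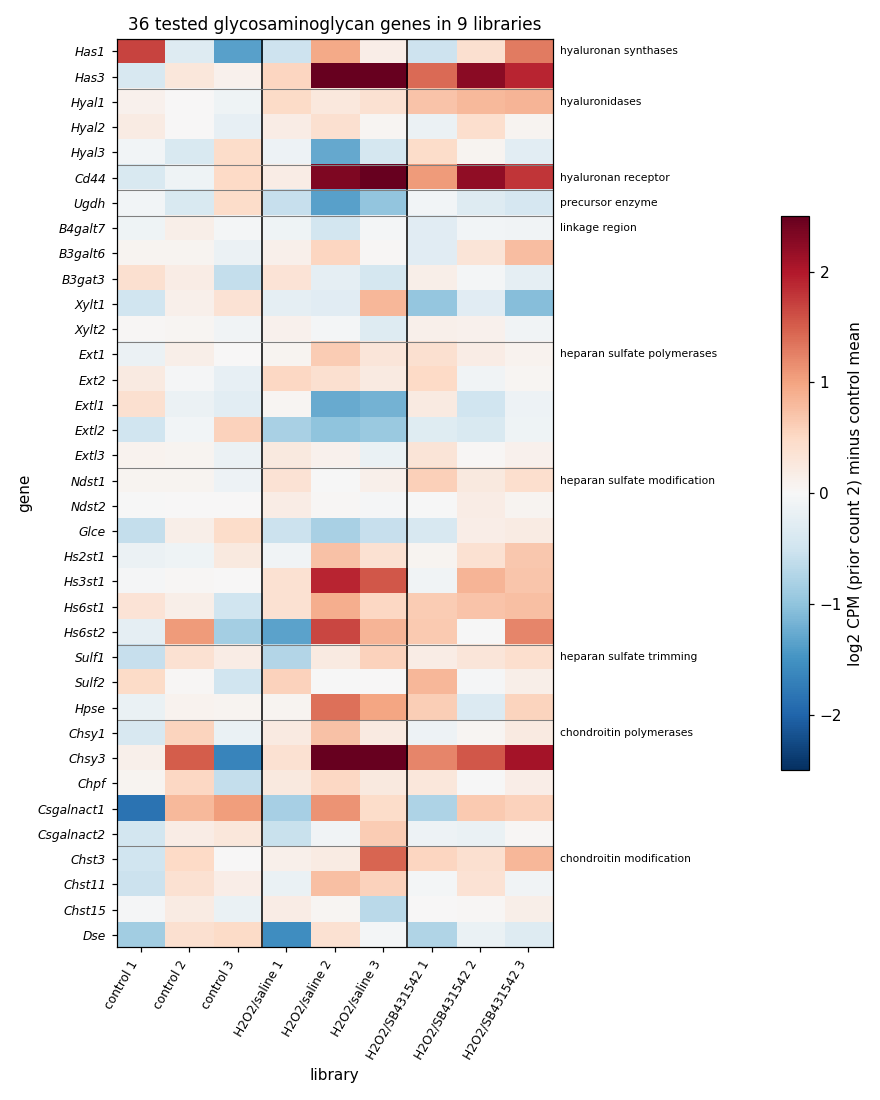
Level of each of the 36 tested genes in each of 9 libraries (columns), as log2 CPM with a prior count of 2 minus the mean of the controls; rows are ordered by role. The *Has3*, *Cd44* and *Hs3st1* rows are among the darkest in H2O2/saline 2 and 3, while H2O2/saline 1 is close to the controls.

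The 9 members with an unadjusted p under 0.05 in H2O2/saline against control were also looked at library by library, as a description, since those libraries chose them. Along the direction of their group difference, their median distance from the control mean on the log2 scale was 0.38 in H2O2/saline 1, 1.38 in H2O2/saline 2 and 0.99 in H2O2/saline 3. All 9 lay on that side in each of the 3. Without H2O2/saline 1, 5 members passed the adjusted threshold in H2O2/saline against control, 3 higher and 2 lower, beside 5.52% and 3.91% of all genes. As that library was picked for its closeness to a control, this cannot support a difference. Between H2O2/SB431542 and H2O2/saline 0 passed without it, beside 0.435% of genes that passed as higher and 0.585% as lower. Between H2O2/SB431542 and control 2 passed, *Has3* and *Cd44*, both higher, beside 0.347%; that comparison moves because all libraries share an estimate of the spread.

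Promoters are shown for *Hs3st1*, *Cd44* and *Ugdh*, the members with the lowest adjusted p after *Has3* in H2O2/saline against control. RefSeq (GRCm38.p6, an earlier build than the GRCm39 of the counts) gave promoters for 28 of the 37 members, in 33 entries; *Has3* was not among them. Each stretch is the 250 bases before the start site, 5′ to 3′ on the gene's strand, which is the minus strand for all 3 shown. They are chr5:65435843-65436092 for *Ugdh*, chr5:39644632-39644881 for *Hs3st1* and chr2:102901666-102901915 for *Cd44*. Capitals mark the core letters TGACNNNGC of the antioxidant response element, on either strand, the sequence through which Nrf2 is known to act under oxidative stress.
Ugdh: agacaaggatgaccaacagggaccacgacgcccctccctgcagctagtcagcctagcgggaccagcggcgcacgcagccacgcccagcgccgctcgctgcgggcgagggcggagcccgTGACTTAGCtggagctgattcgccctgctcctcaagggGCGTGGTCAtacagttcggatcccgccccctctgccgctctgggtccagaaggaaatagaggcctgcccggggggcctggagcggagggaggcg
Hs3st1: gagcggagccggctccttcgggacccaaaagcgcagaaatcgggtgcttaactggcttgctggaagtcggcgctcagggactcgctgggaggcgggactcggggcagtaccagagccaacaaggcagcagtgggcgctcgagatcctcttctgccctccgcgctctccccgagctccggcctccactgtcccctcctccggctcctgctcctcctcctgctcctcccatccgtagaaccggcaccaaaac
Cd44: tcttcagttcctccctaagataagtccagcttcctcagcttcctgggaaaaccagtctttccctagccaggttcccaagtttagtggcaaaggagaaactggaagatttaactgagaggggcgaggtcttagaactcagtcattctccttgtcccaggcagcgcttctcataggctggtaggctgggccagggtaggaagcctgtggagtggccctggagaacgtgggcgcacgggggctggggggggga

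The *Ugdh* window held 2 such cores, at 132 to 124 and 94 to 86 bases before the start site, and the *Hs3st1* and *Cd44* windows held none. Other members with a negative log2 fold change in H2O2/saline against control are described below. Among them a window of *Glce*, *B3gat3*, *Chst15* and *Dse* held the core. Those of *Extl1*, *Extl2*, *Has1*, *Hyal3*, *B4galt7* and *Xylt2* did not. Of all these, only *Glce* and *Extl2* had an unadjusted p under 0.05 in that comparison with edgeR. The sign of the rest was thus uncertain, and whether the core goes with a direction was not tested. Over the members 5 of 33 entries, or 15.2%, had the core, those of *Ugdh*, *B3gat3*, *Glce*, *Chst15* and *Dse*, beside 10.2% of all 32851 promoter windows of this length. The other motifs searched on both strands were the AP-1 site TGANTCA, found in 1 entry (3.03%, beside 6.75% of all windows), the Smad palindrome GTCTAGAC, found in 0 (beside 0.167%), the TATA box TATAAA, found in 2 (6.06%, beside 12.4%) and the GC box GGGCGG, found in 20 (60.6%, beside 32.7%). Such a match describes letters and no binding, and no match says only that the letters are not in this window.

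Among the hyaluronan synthases, *Has3* had the largest difference. *Has3*, which makes shorter hyaluronan chains, had 3.91, 6.26 and 5.59 CPM in control 1 to 3, 7.49, 31.4 and 35.2 in H2O2/saline 1 to 3 and 13.9, 25.0 and 19.5 in H2O2/SB431542 1 to 3. Every H2O2-treated library lay above every control, H2O2/saline 1 only just. The H2O2/SB431542 libraries lay inside the H2O2/saline range, above H2O2/saline 1 and below H2O2/saline 2 and 3. The log2 fold change of H2O2/saline against control was 2.23 ± 0.47 (SE, unadjusted p = 0.000512, adjusted p = 0.060 with edgeR), and the block gave 2.05 (adjusted p = 0.0135). Without H2O2/saline 1 it was 2.62 (adjusted p = 0.000317). H2O2/SB431542 differed from control by 1.89 ± 0.47 (unadjusted p = 0.0017, adjusted p = 0.353 with edgeR) and from H2O2/saline by −0.34, with a 95% interval of −1.32 to 0.63 on the log2 scale. Without H2O2/saline 1 the difference from H2O2/saline was −0.74 (unadjusted p = 0.0196, adjusted p = 0.194 with edgeR). *Has3* shares 352 exon bases (5.52%) with *Chtf8* on the other strand in the annotation; *Chtf8* had 310 to 505 CPM in controls and 388 to 494 in H2O2/saline (log2 fold change 0.11, unadjusted p = 0.581), and whether strand was used in counting is not stated by labels or paper.

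The other synthases were low. *Has1* had 0.464 to 4.20 CPM in controls, 0.867 to 2.48 in H2O2/saline and 0.869 to 3.20 in H2O2/SB431542, so that the 3 groups overlapped over a broad range. *Has2*, which makes long chains in connective tissue, had 9, 0 and 0 counts in controls, 10, 0 and 1 in H2O2/saline and 12, 0 and 6 in H2O2/SB431542, too few to test. Reads of *Has2* were thus present mainly in the libraries with replicate number 1. Per kilobase of exon, *Has3* was at 0.824 CPM, *Has1* at 0.902 and *Has2* at 0.0187 in controls, and *Has3* reached 3.87 in H2O2/saline and 3.05 in H2O2/SB431542, above *Has1* in 8 of the 9 libraries.

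*Cd44*, the main cell surface receptor for hyaluronan and a protein of basal epithelial and immune cells, followed a like pattern. It had 9.20, 11.1 and 16.9 CPM in controls, 13.6, 60.8 and 70.7 in H2O2/saline and 25.2, 56.2 and 41.5 in H2O2/SB431542. H2O2/saline 1 fell within the control range and the other H2O2/saline libraries lay far above it. All H2O2/SB431542 libraries lay above all controls and below H2O2/saline 2 and 3. H2O2/saline exceeded control by 1.96 ± 0.51 on the log2 scale (unadjusted p = 0.00223, adjusted p = 0.0833 with edgeR), by 1.74 with the block (adjusted p = 0.0219) and by 2.36 without H2O2/saline 1 (adjusted p = 0.00102). H2O2/SB431542 against control gave 1.72 ± 0.50 (unadjusted p = 0.00506, adjusted p = 0.372 with edgeR), and against H2O2/saline −0.24, with a 95% interval of −1.30 to 0.82. Without H2O2/saline 1 the difference from H2O2/saline was −0.64 (unadjusted p = 0.0627, adjusted p = 0.315 with edgeR). *Has3* and *Cd44* were both highest in H2O2/saline 2 and 3, the libraries with the highest macrophage (1038 and 972 CPM), neutrophil (40.6 and 33 CPM) and mast cell marker sums (50.2 and 39.6 CPM). They were also the libraries in which 5 of 14 urothelial markers, *Krt7*, *Krt8*, *Krt19*, *Cdh1* and *Epcam*, were higher than in every other library, with *Krt19* at 3219, 9834 and 8272 CPM and *Epcam* at 26.1, 83.4 and 74.0 CPM in H2O2/saline 1 to 3. In the same libraries 3 of the 14, the uroplakins *Upk1a*, *Upk2* and *Upk3a* of the surface cells, were lower than in every other library. Both libraries were also highest for 8 of 10 macrophage, 4 of 9 neutrophil, 4 of 7 mast cell, 3 of 8 fibroblast and 3 of 6 endothelial markers. For smooth muscle it was 0 of 8. The share of all genes highest or lowest in both libraries was not counted, so these counts cannot show a trait of any cell type. The basal keratin *Krt5* had 979 to 2463 CPM in controls and 3874 to 4499 in H2O2/saline, number 1 included. *Trp63*, another of the 14, went the other way, with means of 51.9 CPM in controls, 35.1 in H2O2/saline and 52.7 in H2O2/SB431542. All H2O2/saline libraries lay below all others for *Trp63* (log2 difference from control −0.57 ± 0.22, unadjusted p = 0.0246, adjusted p = 0.206 with edgeR). Whether the share of basal cells changed was not tested. Summed urothelial markers were 26203 to 40096 CPM in controls, 36792 to 41249 in H2O2/saline and 29429 to 32476 in H2O2/SB431542. The part of any of these cell types in the levels of *Has3* and *Cd44* was not tested.

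**Figure D2:**
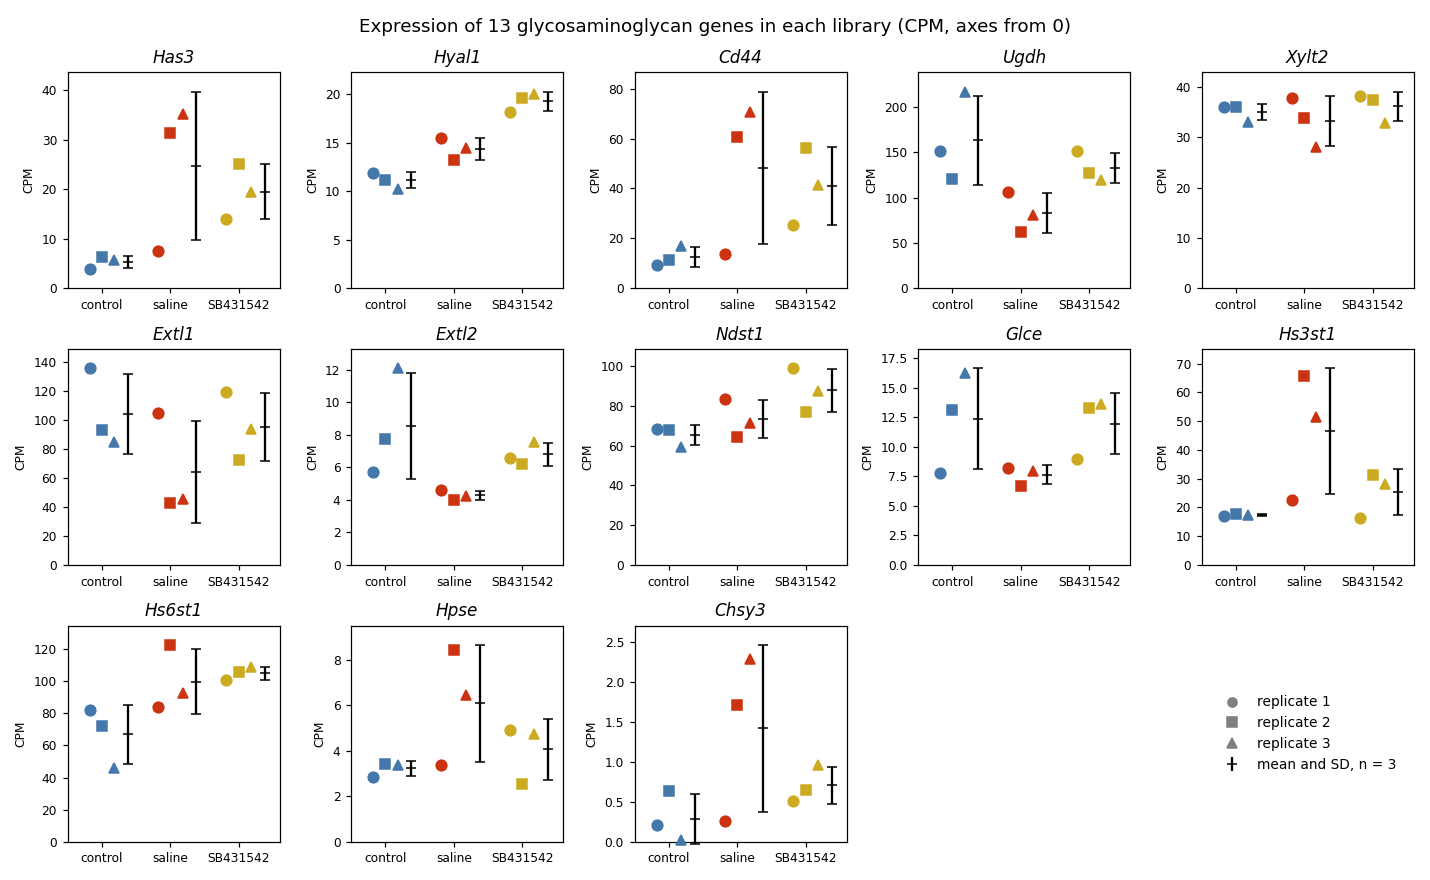
CPM of the 13 members described library by library, with an axis from 0 in each panel; symbols are replicate numbers, colours are groups, and the bar beside each group is its mean and SD (n = 3). *Has3* and *Cd44* show 1 low and 2 high H2O2/saline libraries, *Hyal1* shows 3 groups that do not overlap, and *Xylt2* shows groups that do.

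Hyaluronidases behaved differently from one another. *Hyal1*, the lysosomal hyaluronidase, had 11.9, 11.2 and 10.3 CPM in controls, 15.5, 13.2 and 14.4 in H2O2/saline and 18.1, 19.6 and 20.1 in H2O2/SB431542. The 3 groups did not overlap, with controls lowest and H2O2/SB431542 highest, and here H2O2/saline 1 was not the one near the controls. H2O2/SB431542 differed from control by 0.79 ± 0.19 on the log2 scale, a fold of 1.73 (unadjusted p = 0.0012, adjusted p = 0.344 with edgeR), and from H2O2/saline by 0.42 ± 0.19 (unadjusted p = 0.0436, adjusted p = 0.554 with edgeR). H2O2/saline differed from control by 0.37 ± 0.19 (unadjusted p = 0.0701, adjusted p = 0.329 with edgeR). DESeq2 passed *Hyal1* in H2O2/SB431542 against control (0.78, adjusted p = 0.0187).

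*Hyal1* lies between *Hyal2* and *Naa80*, and the annotation gives it 819 exon bases (21.7%) in common with *Naa80* on the same strand and 159 (4.21%) with *Hyal3*, so reads may have been split among them. *Naa80*, listed in the table as *Nat6*, had 34.8 to 48.0 CPM in controls and 37.2 to 43.5 in H2O2/SB431542, without the order seen in *Hyal1* (log2 fold change −0.12, unadjusted p = 0.637). *Hyal2*, a membrane-anchored hyaluronidase, was the most abundant of the family, with 30.7 CPM per kilobase in controls against 2.94 for *Hyal1* and 0.868 for *Hyal3*. It exceeded *Hyal1* per kilobase in 9 of 9 libraries, by 9.71 to 11.1 times in controls and 5.73 to 7.87 times in H2O2/SB431542. *Hyal2* itself had 100.1 ± 14.1, 116 ± 15.0 and 109 ± 22.1 CPM in the 3 groups, and *Hyal3* 1.69 ± 0.53, 1.11 ± 0.43 and 1.78 ± 0.46 (SD, n = 3), and for both the groups overlapped.

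*Ugdh* makes UDP-glucuronic acid, a building block of hyaluronan, heparan sulfate and chondroitin sulfate and also a substrate for glucuronidation, and it was the most abundant member per kilobase in controls (64.0 CPM per kilobase). It had 152, 121 and 217 CPM in controls, 107, 62.0 and 80.4 in H2O2/saline and 152, 127 and 119 in H2O2/SB431542. All H2O2/saline libraries lay below all controls and below all H2O2/SB431542 libraries, which in turn lay in or just below the control range. H2O2/saline differed from control by −0.98 ± 0.25 on the log2 scale (unadjusted p = 0.00235, adjusted p = 0.0839 with edgeR), by −0.98 with the block (adjusted p = 0.0293) and by −1.24 without H2O2/saline 1 (adjusted p = 0.0113). H2O2/SB431542 differed from H2O2/saline by 0.68 ± 0.25 (unadjusted p = 0.0201, adjusted p = 0.528 with edgeR; 0.233 with the block) and from control by −0.30, with a 95% interval of −0.85 to 0.25. The first 2 of these 3 comparisons share the H2O2/saline libraries. Without H2O2/saline 1 the difference of H2O2/SB431542 from H2O2/saline was 0.94 (unadjusted p = 0.00324, adjusted p = 0.0998 with edgeR).

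The linkage enzymes, which set the first sugars of heparan and chondroitin sulfate onto a protein, showed no member with an unadjusted p under 0.05 in the 3 comparisons. *Xylt2*, a xylosyltransferase that starts the chain, had 35.9, 36 and 33.1 CPM in controls, 37.8, 33.9 and 28.0 in H2O2/saline and 38.2, 37.5 and 32.8 in H2O2/SB431542. The groups overlapped, and the log2 difference of H2O2/saline from control was −0.07, with a 95% interval of −0.46 to 0.31. *Xylt1*, the other xylosyltransferase, had 1.82 to 3.38, 2.12 to 4.66 and 1.21 to 2.13 CPM in control, H2O2/saline and H2O2/SB431542, and its log2 difference between H2O2/SB431542 and H2O2/saline was −0.96 ± 0.45 (unadjusted p = 0.0552, adjusted p = 0.571 with edgeR). Per kilobase, *Xylt2* exceeded *Xylt1* in 9 of 9 libraries, by 25.7 to 51.6 times in controls, 15.8 to 44.5 times in H2O2/saline and 46.3 to 76.8 times in H2O2/SB431542. The galactosyltransferases *B4galt7* (17.6 to 26.8 CPM over the 9 libraries) and *B3galt6* (8.11 to 17.1) and the glucuronosyltransferase *B3gat3* (58.9 to 117) had log2 differences of −0.20, 0.25 and −0.13 between H2O2/saline and control. *B3gat3* was highest in the replicate 1 library of every group, at 117, 113 and 98.4 CPM.

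Among the 5 heparan sulfate polymerases, 0 passed the adjusted threshold with edgeR. In H2O2/saline against control 1, *Extl2*, had an unadjusted p under 0.05, as lower, beside 7.96% of all tested genes. *Extl2*, whose product can add N-acetylhexosamine to the linkage and so limit chain growth, had 5.74, 7.77 and 12.1 CPM in controls, 4.60, 4.01 and 4.24 in H2O2/saline and 6.57, 6.23 and 7.59 in H2O2/SB431542. All H2O2/saline libraries, number 1 included, lay below all libraries of the other groups. The log2 difference of H2O2/saline from control was −0.99 ± 0.30 (unadjusted p = 0.00632, adjusted p = 0.119 with edgeR), and that of H2O2/SB431542 from H2O2/saline was 0.67 ± 0.30 (unadjusted p = 0.0461, adjusted p = 0.558 with edgeR). DESeq2 passed *Extl2* in the first of these (−0.99, adjusted p = 0.0305).

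*Extl1*, a related glucosaminyltransferase, was named after its values were seen, because the block passes it. It had 135, 92.6 and 84.4 CPM in controls, 105, 42.6 and 45.1 in H2O2/saline and 119, 72.5 and 93.4 in H2O2/SB431542. Within every group the replicate 1 library was highest, and for each replicate number the H2O2/saline library was the lowest of the 3 groups. H2O2/saline differed from control by −0.70 ± 0.34 on the log2 scale (unadjusted p = 0.0624, adjusted p = 0.312 with edgeR), by −0.79 with the block (adjusted p = 0.0431) and by −1.30 without H2O2/saline 1 (adjusted p = 0.0103). *Ext1* and *Ext2*, which together form the chain polymerase, had 18.6 ± 1.89 and 80.5 ± 12.5 CPM in controls and 23.8 ± 4.88 and 104 ± 10.2 in H2O2/saline (SD, n = 3), log2 differences of 0.35 and 0.37 that did not pass (unadjusted p = 0.109 and 0.086 with edgeR). *Ext2* exceeded *Ext1* per kilobase by 7.52 to 12.4 times over the 9 libraries. *Extl3*, which starts heparan sulfate chains, had 64.0 to 90.8 CPM and a log2 difference of 0.07.

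**Figure D3:**
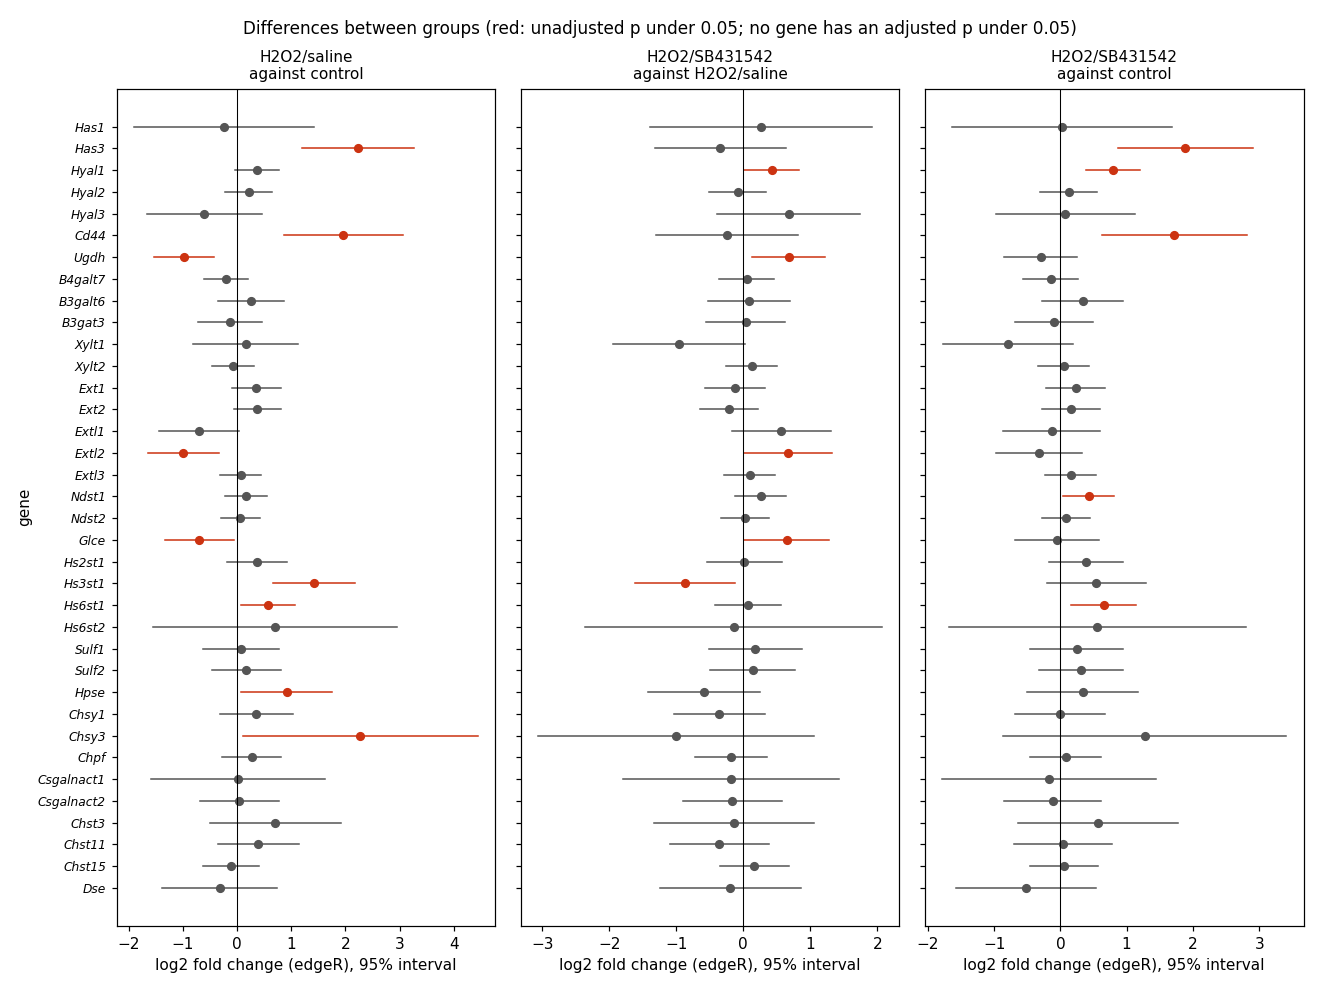
Log2 fold change (edgeR, horizontal axis) and its 95% interval for the 36 tested members in each of the 3 comparisons; red marks an unadjusted p under 0.05, and none has an adjusted p under 0.05. *Has3* and *Cd44* lie to the right of 0 in both comparisons with control, and *Ugdh*, *Extl2* and *Glce* lie to the left in H2O2/saline against control and to the right in H2O2/SB431542 against H2O2/saline.

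Of the heparan sulfate modifiers, *Hs3st1* differed most between H2O2/saline and control. *Hs3st1* adds the rare 3-O-sulfate that makes the antithrombin binding site of heparin. It had 17.1, 17.7 and 17.4 CPM in controls, 22.7, 65.5 and 51.3 in H2O2/saline and 16.4, 31.4 and 28.2 in H2O2/SB431542. Controls hardly varied, every H2O2/saline library lay above them, and H2O2/SB431542 1 lay below every control while H2O2/SB431542 2 and 3 lay between the control and the high H2O2/saline libraries. H2O2/saline exceeded control by 1.42 ± 0.35 on the log2 scale (unadjusted p = 0.00153, adjusted p = 0.0744 with edgeR), by 1.28 with the block (adjusted p = 0.0249) and by 1.70 without H2O2/saline 1 (adjusted p = 0.00184). H2O2/SB431542 was lower than H2O2/saline by a log2 difference of −0.88 ± 0.34 (unadjusted p = 0.0253, adjusted p = 0.531 with edgeR; 0.234 with the block), the lowest unadjusted p among the members with a negative difference in that comparison. Without H2O2/saline 1 that difference was −1.16 (unadjusted p = 0.000596, adjusted p = 0.0533 with edgeR).

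*Hs6st1*, a 6-O-sulfotransferase, had 82.2, 72.1 and 46.0 CPM in controls, 84.1, 122 and 92.3 in H2O2/saline and 100.4, 106 and 109 in H2O2/SB431542. Both treated groups lay above all controls, H2O2/saline 1 narrowly. The log2 differences from control were 0.58 ± 0.23 in H2O2/saline (unadjusted p = 0.0259, adjusted p = 0.211 with edgeR) and 0.65 ± 0.23 in H2O2/SB431542 (unadjusted p = 0.0142, adjusted p = 0.469 with edgeR). *Gm37335* and *Gm43552*, which overlap *Hs6st1* and *Ugdh* in the annotation, had no counts in any library.

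*Glce*, the C5-epimerase that turns glucuronic into iduronic acid, had 7.83, 13.1 and 16.3 CPM in controls, 8.21, 6.73 and 7.98 in H2O2/saline and 8.98, 13.3 and 13.7 in H2O2/SB431542. H2O2/saline was low in all 3 libraries, but so was control 1. The log2 differences were −0.70 ± 0.29 between H2O2/saline and control (unadjusted p = 0.0334, adjusted p = 0.235 with edgeR) and 0.65 ± 0.29 between H2O2/SB431542 and H2O2/saline, where the libraries did not overlap (unadjusted p = 0.0451, adjusted p = 0.557 with edgeR).

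*Ndst1*, which starts sulfation by removing acetyl groups and adding N-sulfate, had 68.3, 68.0 and 59.5 CPM in controls, 83.5, 64.5 and 71.6 in H2O2/saline and 98.8, 77.0 and 87.3 in H2O2/SB431542. The H2O2/SB431542 libraries lay above all controls, while H2O2/saline overlapped both other groups. The log2 difference of H2O2/SB431542 from control was 0.43 ± 0.17 (unadjusted p = 0.0312, adjusted p = 0.597 with edgeR). Its homologue *Ndst2* varied little, with 27.4 to 27.7 CPM in controls and 27.0 to 31.4 in the treated libraries. *Hs2st1*, the 2-O-sulfotransferase, had 11.9 ± 1.87, 15.4 ± 4.26 and 15.6 ± 3.20 CPM in the 3 groups (SD, n = 3) and *Hs6st2* at most 32 counts in a library; neither had an unadjusted p under 0.05.

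Trimming of heparan sulfate involves the 6-O-endosulfatases *Sulf1* and *Sulf2* and the endoglucuronidase *Hpse*. *Hpse*, or heparanase, which cuts the chain, had 2.86, 3.43 and 3.38 CPM in controls, 3.35, 8.43 and 6.44 in H2O2/saline and 4.93, 2.53 and 4.73 in H2O2/SB431542. H2O2/saline 2 and 3 were the highest of all libraries, and H2O2/saline 1 fell among the controls. The log2 difference of H2O2/saline from control was 0.92 ± 0.39 (unadjusted p = 0.0359, adjusted p = 0.244 with edgeR). *Sulf2* was among the most abundant members, with 47.8 CPM per kilobase in controls against 2.72 for *Sulf1*, and was highest in the replicate 1 library of each group (317, 343 and 404 CPM). The log2 differences of *Sulf1* and *Sulf2* between H2O2/saline and control were 0.07 and 0.17, with 95% intervals of −0.63 to 0.77 and −0.47 to 0.81.

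Chondroitin polymerases all had a positive log2 difference between H2O2/saline and control and a negative one between H2O2/SB431542 and H2O2/saline, comparisons that share the H2O2/saline libraries. Over all tested genes 48.6% and 51.7% were positive in these comparisons. The first difference was near 0 for *Csgalnact1* (0.016) and *Csgalnact2* (0.045), and the groups overlapped for every polymerase. In H2O2/saline against control 1 of the 5 had an unadjusted p under 0.05, as higher, beside 9.88% of all tested genes. That was *Chsy3*, a chondroitin synthase near the lower limit of detection, with 8, 24 and 1 counts in controls, 9, 66 and 92 in H2O2/saline and 21, 26 and 42 in H2O2/SB431542. These were 0.212, 0.634 and 0.0258 CPM, 0.260, 1.71 and 2.28 CPM, and 0.507, 0.650 and 0.960 CPM. H2O2/saline 1 fell among the controls, and the log2 difference of 2.28 ± 0.996 rested on few reads (unadjusted p = 0.0415, adjusted p = 0.258 with edgeR). *Chsy1* had 5.47 ± 1.99, 7.02 ± 1.51 and 5.47 ± 0.67 CPM, and its partner in the polymerase *Chpf* 70.8 ± 26.1, 85.2 ± 9.59 and 74.9 ± 7.45 CPM (SD, n = 3). The N-acetylgalactosaminyltransferases *Csgalnact1* and *Csgalnact2*, which start chondroitin rather than heparan sulfate, had 0.317 to 2.85 and 4.10 to 9.39 CPM over the 9 libraries, with *Csgalnact1* lowest in the replicate 1 library of each group (0.317, 0.694 and 0.725 CPM).

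Chondroitin modifiers did not pass an unadjusted p of 0.05 in any comparison. *Chst11*, a 4-O-sulfotransferase, had 5.06 ± 1.55, 6.66 ± 2.06 and 5.20 ± 0.96 CPM in control, H2O2/saline and H2O2/SB431542, *Chst15*, which adds the second sulfate of highly charged chondroitin, 18.4 ± 2.52, 17.1 ± 4.95 and 19.1 ± 0.98, and *Chst3*, a 6-O-sulfotransferase, 0.883 ± 0.32, 1.44 ± 0.84 and 1.31 ± 0.22 (SD, n = 3). *Dse*, the epimerase that makes dermatan from chondroitin, had 5.53 ± 2.41, 4.41 ± 2.5 and 3.86 ± 0.76 CPM and was lowest in the replicate 1 library of each group (2.75, 1.71 and 3.02 CPM). Of the 23 tested members not given library by library, 20 had a log2 difference under 0.5 in size between H2O2/saline and control, with a range of −0.60 in *Hyal3* to 0.70 in *Hs6st2*. Members with an unadjusted p under 0.05 in any comparison had been set apart, so small differences among the rest follow largely from that choice. How many of all tested genes lay within that size was not counted.

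**Figure D4:**
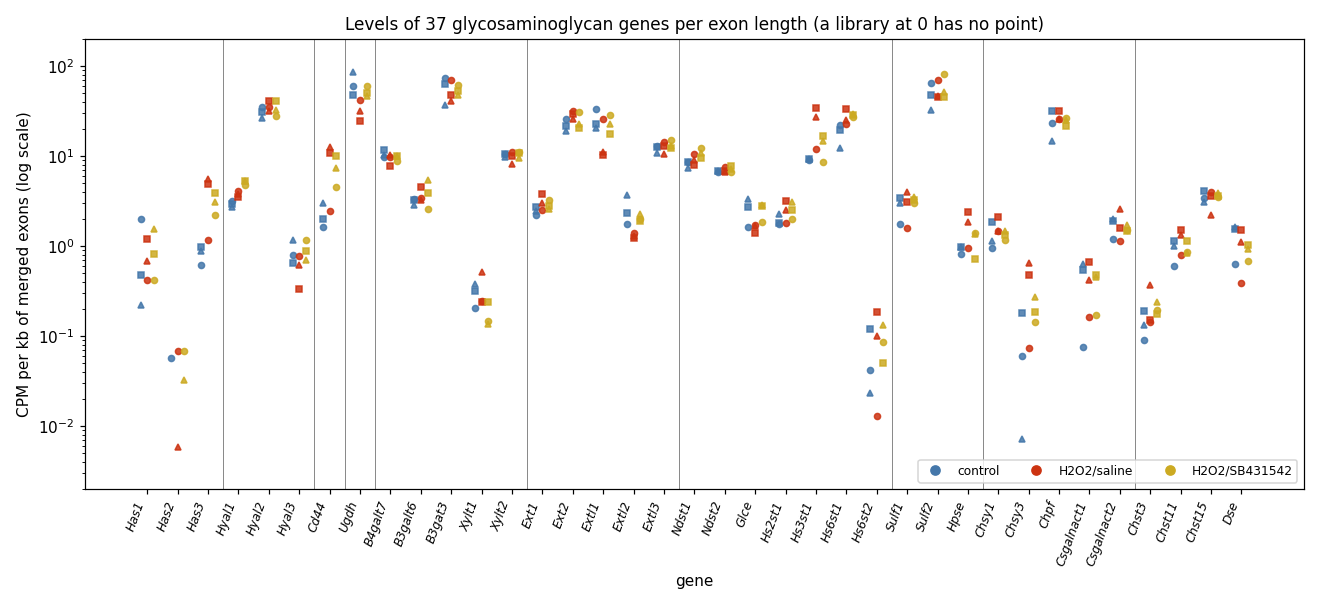
Level of each of the 37 members as CPM per kilobase of merged exons on a log scale, with a point for each library, colours for groups and members ordered by role. *Ugdh*, *B3gat3* and *Sulf2* are highest in controls at 64.0, 57.6 and 47.8, and *Has2* is lowest at 0.0187.

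Levels per kilobase ranged from 0.0187 for *Has2* to 64.0 for *Ugdh* in controls. After *Ugdh* came *B3gat3* (57.6 ± 18.7), *Sulf2* (47.8 ± 15.7), *Hyal2* (30.7 ± 4.34), *Extl1* (25.2 ± 6.64), *Chpf* (23.1 ± 8.49) and *Ext2* (22.1 ± 3.43 CPM per kilobase; SD, n = 3). The means of *Ugdh*, *B3gat3* and *Sulf2* differed by less than the SD of *Ugdh* (19.3), and those of *Extl1*, *Chpf* and *Ext2* by less than the SD of *Ext2*. Between related enzymes, *Hs6st1* per kilobase exceeded *Hs6st2*, *Chpf* exceeded *Chsy1* and *Sulf2* exceeded *Sulf1* in 9 of 9 libraries, the last by 10.9 to 43.8 times, whereas *Ndst1* exceeded *Ndst2* by 1.1 to 1.85 times.

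Genes of the same pathway outside the 37 were taken from 4 lists, of which 61 were found and 49 tested. With edgeR 0 passed the adjusted threshold in the 3 comparisons. For H2O2/saline against control 10 had an unadjusted p under 0.05 as higher and 2 as lower, beside 9.88% and 7.96% of all tested genes. In either direction DESeq2 passed 8 of them, beside 8.31% of the genes to which it gave an adjusted p. The block passed 6, beside 4.79% of all tested genes, and limma-voom 0, beside 0.0362%. For H2O2/SB431542 against H2O2/saline 1 was higher and 1 lower at the unadjusted threshold, beside 3.86% and 4.98% of all genes, and against control 5 were higher and 1 lower, beside 4.36% and 3.24%. The median log2 difference of H2O2/saline from control was 0.07, against −0.02 over all tested genes.

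Precursor supply (14 tested) held 3 higher and 1 lower at the unadjusted threshold in H2O2/saline against control, beside 9.88% and 7.96% of all tested genes. *Ugp2*, which makes the UDP-glucose that *Ugdh* oxidises, had 29.2, 47.0 and 48.3 CPM in controls, 21.4, 21.6 and 24.6 in H2O2/saline and 26.5, 29.9 and 30.9 in H2O2/SB431542. As for *Ugdh*, all H2O2/saline libraries lay below those of both other groups (log2 difference from control −0.88 ± 0.21, unadjusted p = 0.00144, adjusted p = 0.0739 with edgeR, 0.0261 with the block). *Ugp2* in H2O2/SB431542 differed from control by −0.51 ± 0.21 (unadjusted p = 0.0332, adjusted p = 0.603 with edgeR). *Papss1*, which makes the sulfate donor, had 34.8 to 40.8 CPM in controls and 45.4 to 69.3 in H2O2/saline (0.66 ± 0.20, unadjusted p = 0.00665, adjusted p = 0.122 with edgeR).

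Lysosomal breakdown enzymes (13 tested) held 3 higher and 0 lower at that threshold, beside the same 9.88% and 7.96%. *Gusb*, β-glucuronidase, had 48.2, 31.7 and 34.0 CPM in controls, 58.2, 76.2 and 73.6 in H2O2/saline and 59.4, 58.1 and 52.7 in H2O2/SB431542, with both treated groups above all controls (0.87 ± 0.20 for H2O2/saline, unadjusted p = 0.00101, adjusted p = 0.0679 with edgeR, 0.0336 with the block). *Glb1*, β-galactosidase, had 35.0 to 42.6 CPM in controls and 50.9 to 69.7 in H2O2/saline (0.74 ± 0.19, unadjusted p = 0.00181, adjusted p = 0.0796 with edgeR, 0.043 with the block). Macrophages are rich in these enzymes, and the macrophage marker sum was higher in every H2O2/saline library than in every control; its part was not tested.

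Other hyaluronan proteins (10 of 16 tested) held 2 higher and 1 lower, and the linkage and chain partners (12 of 18 tested) 2 higher and 0 lower, again beside 9.88% and 7.96% of all genes. *Stab1*, a hyaluronan scavenger receptor of macrophages and vessels, had 41.3 to 69.9 CPM in controls and 96.0 to 138 in H2O2/saline (1.04 ± 0.23, unadjusted p = 0.000748, adjusted p = 0.0632 with edgeR, 0.0261 with the block), and *Layn*, another hyaluronan receptor, 0.873 to 2.40 and 1.16 to 5.69 CPM (1.36 ± 0.60, unadjusted p = 0.0427, adjusted p = 0.262 with edgeR). *Hs3st3b1*, a 3-O-sulfotransferase like *Hs3st1*, had 0, 0.211 and 0 CPM in controls, 0.347, 0.802 and 3.96 in H2O2/saline and 0.580, 2.83 and 2.42 in H2O2/SB431542, few reads in which both treated groups lay above all controls (unadjusted p = 0.00481, adjusted p = 0.108 with edgeR, 0.0481 with the block). *Pxylp1*, the phosphatase that clears the way for chain extension, had 7.77 to 11.3 CPM in controls and 12.1 to 21.4 in H2O2/saline (0.89 ± 0.27, unadjusted p = 0.00639, adjusted p = 0.12 with edgeR).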

How the data were processed

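Poly-A RNA of 9 mouse bladder samples was sequenced by the authors as paired reads of 150 bp and analysed with strand NGS on build GRCm39. The sources used here name no aligner, counting rule or annotation. The deposited raw columns hold the authors' expected counts (32.0% of nonzero values are whole), and the deposited normalized columns are log2 values, which are the raw values times a factor per library, centred per gene by the authors; these were used only in an added alternative.

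Expected counts were rounded to whole numbers, which moves values of low genes by up to a read, and library sizes were adjusted by TMM (0.910 to 1.07). edgeR 4.0.16 (R 4.3.3) kept 19314 genes by filterByExpr and fitted all 9 libraries with a mean per group; its quasi-likelihood test gave p values, adjusted by Benjamini-Hochberg over all tested genes, called under 0.05. CPM use the TMM factors. SE is the log2 fold change over the square root of F. Levels per kilobase use merged exons of GENCODE M21 (GRCm38), and exon overlaps come from it. Total counts of 37329213 to 41055328 limit precision for members near 1 CPM. The edgeR code was tested on simulated data.

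The members and lists were chosen with earlier results of these data known. Given library by library are members with an adjusted or unadjusted p under 0.05 in any comparison, *Hyal1* and *Xylt2*, which the paper names, *Extl1*, added after its values were seen, and *Has2*, as counts; list genes are those past the adjusted threshold or else the 2 with the lowest p for H2O2. The labels do not tie equal replicate numbers together. After removing group means, equal numbers correlated at 0.312, 0.119 and 0.112 for control with H2O2/saline and at 0.514, 0.201 and 0.129 for H2O2/saline with H2O2/SB431542, all over 0.1, so the block stands beside those comparisons where it changes a call. Alternatives were DESeq2 1.42.0, limma-voom (limma 3.58.1), other scalings and filters, a fit of just the groups compared, the replicate block, and each library omitted in turn. Replicates 2 and 3 only, and limma on the authors' log2 values, were added after seeing the data.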

Additional observations from a re-analysis of the deposited data

How the results depend on the processing

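For the members, the number past the adjusted threshold in H2O2/saline against control was 0 with edgeR and 5 with DESeq2, 5 without a filter on low counts, 1 with at least 10 counts in every library, 5 with the replicate block and 8 with replicates 2 and 3 only. For H2O2/SB431542 against H2O2/saline it was 1 without a filter and 2 with replicates 2 and 3 only, and for H2O2/SB431542 against control it was 3, 2, 1 and 2 with DESeq2, without a filter, with only the 2 groups compared and with replicates 2 and 3 only. Leaving out each library in turn gave 0 to 5, 0 to 0 and 0 to 2 members, the highest each time without H2O2/saline 1 (5 and 2). Without a filter the fit also holds many genes with few reads. The cause of these shifts was not tested.

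Over all tested genes the count in H2O2/saline against control was 10, and 1415 with DESeq2, 1579 without a filter, 323 with at least 10 counts, 4 with only the 2 groups, 925 with the replicate block and 2521 with replicates 2 and 3 only. In H2O2/SB431542 against H2O2/saline, where it was 0, it was 27 with DESeq2, 274 without a filter, 1 with only the 2 groups, 234 with replicates 2 and 3 only and 2 with limma on the authors' values. In H2O2/SB431542 against control, where it was 3, it was 183 with DESeq2, 5 with upper-quartile scaling, 439 without a filter, 6 with at least 10 counts, 23 with only the 2 groups and 449 with replicates 2 and 3 only. Leaving out a library gave 0 to 1822, 0 to 197 and 0 to 83 genes.

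In H2O2/SB431542 against control equal replicate numbers correlated at 0.321, 0.0399 and 0.0770, and 2 of 6 libraries correlated best with their own number, so they share only a number there. The replicate block passed 1 member, *Has3* (adjusted p = 0.0485), and 35 genes. For H2O2/SB431542 against H2O2/saline it changed no call of a member.

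The sign turned in 9 cases, each on leaving out a library and none of them called. For H2O2/SB431542 against H2O2/saline, *Has3* ran from −0.74 to 0.012 (the latter without H2O2/saline 3) and *Cd44* from −0.64 to 0.15 (without H2O2/saline 3, and 0.020 without H2O2/SB431542 1). For H2O2/SB431542 against control, *Extl1* ran from −0.32 to 0.096 (without control 1, and 0.015 without H2O2/SB431542 2), *Extl2* from −0.55 to 0.0199 (without control 3) and *Glce* from −0.30 to 0.21 (without control 3, and 0.12 without H2O2/SB431542 1). *Xylt2* ran from −0.23 to 0.043 (without H2O2/saline 3) in H2O2/saline against control. Of 738 values of single members, 686 kept direction and side of the threshold and 43 passed it.

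With 3 libraries a group and a spread that H2O2/saline 1 widens, adjusted p values of members near the threshold turn on the test. *Has2*, *Chsy3* and *Hs6st2* have too few reads for a firm statement.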
